A study of Mus musculus with 5 samples.

Results

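Transcripts of 9 calcium-binding proteins were followed in RNA pulled down with tagged ribosomes from dentate gyrus and cerebral cortex of adult mice. The genes, taken by symbol from the deposited counts, encode the sensor calmodulin (Calm2, Calm3), the buffers calbindin (Calb1) and calretinin (Calb2), and sensors of the neuronal calcium sensor family (Hpca, Hpcal1, Hpcal4, Ncald, Ncs1). All 9 were found among the 32531 genes listed in the counts, and all 9 passed the filter that left 14136 genes for testing. The mice carried the KL100 Rbp4-Cre driver and a Rosa26 allele that makes EGFP-tagged Rpl10a, a ribosomal protein, after Cre acts. The dentate gyrus gave 3 libraries and the cortex 2, each from an anti-EGFP immunopurification of separately homogenized tissue, with no treatment. Both tissues thus share the driver, the tagged allele and the pulldown. The Cre is driven by regulatory sequence of Rbp4, so the tagged cells are those in which that driver is active, and RNA of untagged cells carried through the pulldown was not measured here. The labels do not say whether libraries came from separate animals, so the p-values measure the spread between these libraries, which may be technical. In such bulk RNA, fewer cells of a type and less RNA per cell cannot be told apart.

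Calcium entering a neuron through channels and receptors is bound by EF-hand proteins, in which a helix, a short calcium-holding loop and a second helix form the binding site. Buffers such as calbindin and calretinin mainly limit the size and spread of the calcium signal. Sensors change shape on binding calcium and pass the signal on. Calmodulin activates the calmodulin-dependent kinases and the phosphatase calcineurin. Sensors of the hippocalcin group carry a myristoyl tail on the glycine after the start methionine and move to membranes when calcium rises. In the hippocampus, calbindin is a common marker of mature granule cells, and hippocalcin takes part in the slow potassium current that follows bursts of action potentials.

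The coding sequences show how alike the members are and how far reads of one can be told from reads of another. Calm2 and Calm3 encode the same 149 residues, as translated from GENCODE, while 82.7% of their coding bases are identical and the longest run of bases they share is 17. The stretch below encodes the first EF-hand loop of calmodulin, codons 21 to 33 counted from the start codon. Capitals mark the 7 of 39 bases that differ between the genes.
Calm2: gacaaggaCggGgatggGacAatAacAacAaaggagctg
Calm3: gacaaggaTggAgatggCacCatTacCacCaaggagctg
The 5 sensors of the neuronal calcium sensor family encode 190 to 193 residues. Their second codon is a glycine codon in each case, and each holds 3 matches to the canonical EF-hand loop pattern, against 4 in calmodulin, 4 in calbindin and 5 in calretinin. Hippocalcin (Hpca) is closest to Hpcal1, with 93.8% identical residues, then to Ncald (88.1%), Hpcal4 (67.2%) and Ncs1 (57.0%). The first matching loop lies at codons 73 to 85 in all 5 genes. Capitals mark the 22 of 39 bases that are the same in all 5.
Hpca: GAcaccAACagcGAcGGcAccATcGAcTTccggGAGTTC
Hpcal1: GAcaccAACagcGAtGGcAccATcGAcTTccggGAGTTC
Ncald: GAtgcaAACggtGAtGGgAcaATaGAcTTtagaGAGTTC
Hpcal4: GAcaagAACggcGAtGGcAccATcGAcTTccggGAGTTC
Ncs1: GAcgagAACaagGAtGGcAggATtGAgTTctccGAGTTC
The longest run shared by coding sequences within this group is 46 bases, between Hpca and Ncald. Reads placed at more than 1 position were not counted to a gene, so reads within shared runs or processed copies of these genes may be missing from the values given here.

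Across the 9 genes, 4 were called higher in dentate gyrus (Calm3, Calb1, Hpca and Ncald), 0 were called lower and 5 were not called. The call is an adjusted p under 0.05 in the quasi-likelihood test of edgeR, adjusted by Benjamini-Hochberg over all genes tested. Over all genes tested, 21.3% were called, with 10.5% higher and 10.8% lower. Among genes with a mean of at least 100 CPM (counts per 1000000 counted reads) the share was 51.6%, and 4 of the 7 members at that level were called, a share near that background. The median log2 fold change was 0.28 over the members and 0.02 over all genes tested. In 6 members every dentate gyrus library lay above both cortex libraries and in 1, Calb2, every one lay below. Among all genes tested, 50.1% did not overlap in one direction or the other. Hpcal1 and Ncs1 overlapped between the tissues.

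**Figure D1:**
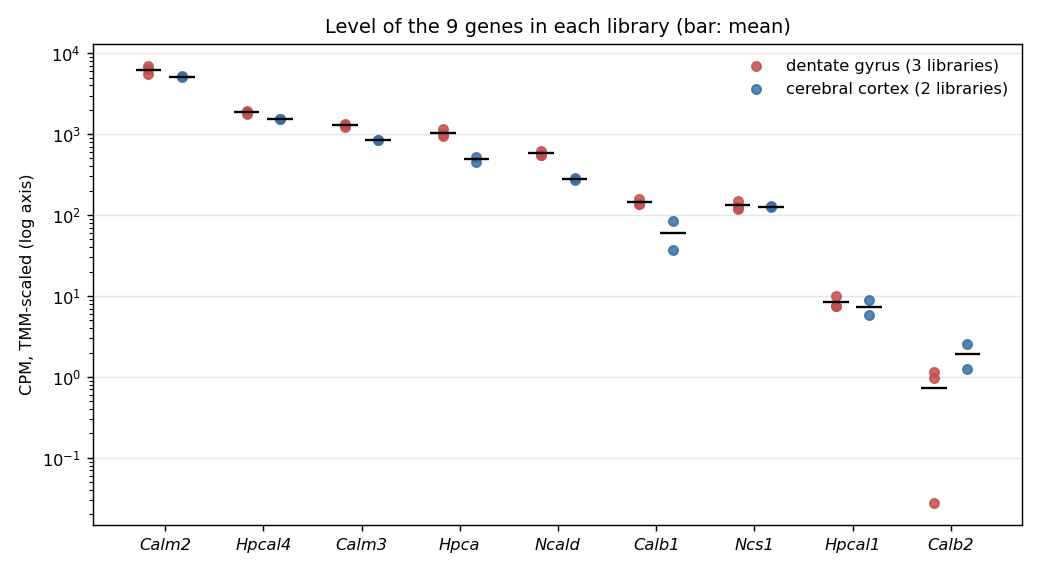
Level of each of the 9 genes in CPM on a log axis, with 1 point per library, dentate gyrus left (3 libraries) and cerebral cortex right (2 libraries), and a bar at each mean. Calm2 is highest and Calb2 lowest in both tissues, and the tissues stand apart most clearly for Hpca and Ncald.

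Markers of the dissected tissues were checked, and 2 libraries stood apart. Of 5 markers of layer 5 pyramidal cells, in which this driver is known to act, 4 were called lower in dentate gyrus. Their sums were 80.4, 216 and 101 CPM in dentate gyrus replicates 1, 2 and 3, and 837 to 900 CPM in cortex. Replicate 2 thus had the highest sum within dentate gyrus. Cortex replicate 1 held cerebellar markers, given beside Calb1. Dentate gyrus replicate 2 held Dcn and Dlk1, listed for subiculum and other cells, at 114 and 83.4 CPM. Dcn and Dlk1 had been seen to differ within a tissue in these data before that list was drawn. Without both libraries the log2 fold changes were 0.58 for Calm3 (adjusted p 0.0386), 1.91 for Calb1 (adjusted p 0.00346), 1.01 for Hpca (adjusted p 0.0108) and 1.14 for Ncald (adjusted p 0.00588) by edgeR, all still called.

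Calm2 was the most abundant member in every library, whereas Calm3 stood below Hpcal4 in CPM in every library. Calm2 (chromosome 17, 87433412 to 87446935, minus strand, GENCODE M21 on GRCm38) was at 6361, 6981 and 5477 CPM in the dentate gyrus libraries and at 5235 and 5066 CPM in the cortex libraries. The dentate gyrus libraries were all higher, but the lowest of them lay close to cortex replicate 1. The log2 fold change of Calm2 was 0.28 (SE 0.10) and its adjusted p by edgeR was 0.0667, so it was not called. It was called without dentate gyrus replicate 3 (log2 fold change 0.36, adjusted p = 0.0230 by edgeR), with no filter on low counts (0.29, adjusted p = 0.0142) and by limma voom (0.27, adjusted p = 0.0135).

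Calm3 (chromosome 7, 16915379 to 16924114, minus strand) encodes the same protein and was called higher in dentate gyrus. It was at 1314, 1342 and 1221 CPM in dentate gyrus, against 841 and 849 CPM in cortex. The means were 1293 ± 63.3 CPM in dentate gyrus (SD, n = 3) and 845 ± 5.75 CPM in cortex (SD, n = 2). The log2 fold change was 0.61 (SE 0.10, adjusted p by edgeR 0.00142), a fold of 1.53, and it stayed between 0.57 and 0.64 when single libraries were left out. Per kilobase of merged exons, Calm2 was 7.99, 8.59 and 7.41 times as abundant as Calm3 in the dentate gyrus libraries and 10.3 and 9.85 times in the cortex libraries. The ratio was thus lower in every dentate gyrus library. Per kilobase of coding sequence it averaged 4.84 in dentate gyrus and 6.10 in cortex. Such ratios are given as values, with no test. The other calmodulin gene tested was also called higher in dentate gyrus.

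Calb1 had the largest called difference and the largest spread between replicates among the called members. Calb1 (chromosome 4, 15881264 to 15908064, plus strand) measured 137, 156 and 137 CPM in dentate gyrus, against 84.4 and 36.6 CPM in cortex. The highest dentate gyrus library was 1.14 times the lowest, whereas cortex replicate 1 was 2.31 times cortex replicate 2. The log2 fold change was 1.24 (SE 0.31, adjusted p by edgeR 0.0168), a fold of 2.37. Without cortex replicate 1 it was 1.98 with an adjusted p by edgeR of 0.000873, and without cortex replicate 2 it was 0.73 with an adjusted p of 0.0542, which ends the call.

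Purkinje cells of the cerebellum are a known site of high calbindin, and their markers moved with the Calb1 level within cortex. Cortex replicate 1 held the Purkinje genes Car8, Ppp1r17 and Pcp2 at levels of 411, 35.7 and 19.7 CPM, while in cortex replicate 2 they were at 1.44, 0 and 0.123 CPM. All 8 cerebellar markers listed were higher in cortex replicate 1 than in replicate 2. Of these, Car8, Ebf1, Ebf2 and Ebf3 had been seen to differ within a tissue in these data before the list was drawn. For these genes the count was thus no independent check. The summed level of the 8 markers was 4.06, 6.0 and 2.74 CPM in the dentate gyrus libraries, and 554 and 8.45 CPM for cortex replicates 1 and 2. Most of the sum in cortex replicate 1 was Car8. The part of cerebellar cells in the Calb1 value of cortex replicate 1 was not tested.

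**Figure D2:**
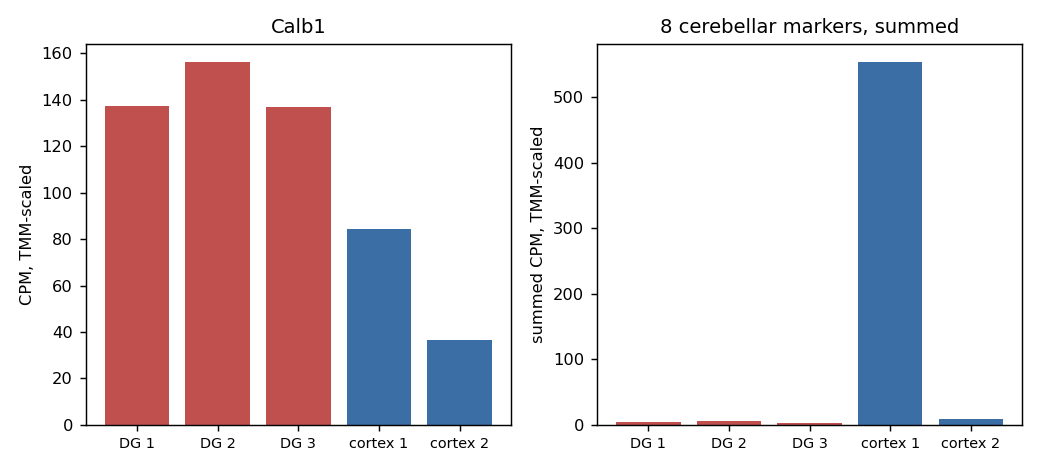
Calb1 (left) and the summed level of 8 markers of Purkinje and other cerebellar cells (right) in CPM, 1 bar per library, with 3 dentate gyrus libraries (DG) left of 2 cortex libraries. Cortex replicate 1 has the higher Calb1 value of the cortex libraries, 84.4 against 36.6 CPM, and a marker sum of 554 CPM. Car8, Ebf1, Ebf2 and Ebf3 were listed with their values in these data already seen.

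Mature granule cells are a known site of calbindin in the hippocampus, and granule cell markers were high in all dentate gyrus libraries. All 8 granule cell markers listed were called higher in dentate gyrus, with summed levels of 5096 to 5551 CPM there and 309 to 412 CPM in cortex. That list was drawn with earlier results of these data known, so the count was no independent check. Whether the granule cells were mature was not tested. Interneurons of cortex also make calbindin and calretinin. Of 10 interneuron markers, 7 were called lower and 1 higher in dentate gyrus, with summed levels of 537 to 556 CPM in dentate gyrus and 1959 to 2106 CPM in cortex. The sums came mostly from Cck and Sst. The gene called higher was Gad1, at 71.6, 57.2 and 64.8 CPM in dentate gyrus, against 26.6 and 41.0 CPM in cortex. Slc32a1 and Htr3a were not called. The part of these cells in the Calb1 difference was not tested.

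Calb2, the calretinin gene and a marker of many interneurons, of mossy cells in mouse and of immature granule neurons, was close to the limit of detection. Calb2 (chromosome 8, 110137502 to 110168210, minus strand) had 1, 26 and 25 counts in the dentate gyrus libraries, or 0.0276, 1.15 and 0.979 CPM. The cortex libraries had 44 and 63 counts, or 1.25 and 2.58 CPM. The count of 1 lies under the floor of 3 counts, which corresponds to 0.0828 CPM in that library. Its log2 fold change was -1.42 (SE 1.39) with an adjusted p by edgeR of 0.539, and the SE is nearly as large as the difference. The highest dentate gyrus value was 41.8 times the lowest, which came from the library with the most counts. Of 5 mossy cell markers, 2 were called lower, 0 higher and 1 (Csf2rb2) had 0 counts in all libraries, with sums of 83.0 to 110 CPM in dentate gyrus and 284 to 315 CPM in cortex, nearly all from Ociad2. The interneuron gene Vip was at 0 to 0.178 CPM in dentate gyrus and at 2.74 and 6.65 CPM in cortex. Of 5 immature granule neuron markers, 2 (Neurod1 and Sox11) were called higher and 0 lower. The sums were 349 to 385 CPM in dentate gyrus, mostly from Neurod1 and Sox11, and 80.0 to 116 CPM in cortex. Dcx and Sox4 were not called, and their log2 fold changes of -0.59 and -1.72 pointed the other way. The part of these cells in the Calb2 value was not tested.

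Hippocalcin showed the clearest difference among the 5 member sensors of the neuronal calcium sensor family, together with neurocalcin delta. Hpca (chromosome 4, 129111570 to 129122036, minus strand) measured 1161, 1004 and 940 CPM in dentate gyrus, against 448 and 526 CPM in cortex. The lowest dentate gyrus library was well above the highest cortex library. The means were 1035 ± 114 CPM in dentate gyrus (SD, n = 3) and 487 ± 55.1 CPM in cortex (SD, n = 2), with a log2 fold change of 1.09 (SE 0.13, adjusted p by edgeR 0.000291), a fold of 2.13. The exons of Hpca overlap those of Tmem54 on the other strand, and Tmem54 had no more than 0.221 CPM in any library.

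Ncald, the neurocalcin delta gene, differed by nearly the same amount. Ncald (chromosome 15, 37366175 to 37792570, minus strand) measured 619, 555 and 557 CPM in dentate gyrus, against 289 and 269 CPM in cortex. The means were 577 ± 36.6 CPM in dentate gyrus (SD, n = 3) and 279 ± 14.7 CPM in cortex (SD, n = 2), and the tissues did not overlap. Its log2 fold change was 1.05 (SE 0.12, adjusted p by edgeR 0.000221), a fold of 2.07. The ratio of Hpca to Ncald per kilobase was 5.51, 5.32 and 4.95 in the dentate gyrus libraries and 4.54 and 5.75 in the cortex libraries, so that the tissues overlapped. With the longest transcript as the length this ratio averaged 3.62 in dentate gyrus and 3.54 in cortex, and with the coding sequence 1.79 in dentate gyrus and 1.75 in cortex. The gene models Gm28221 on the other strand and Gm49397 on the same strand overlap Ncald exons, and the strand setting of the counting is not given in the sources used here.

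Hpcal4, whose protein (also called VILIP-2) modulates presynaptic calcium channels, was abundant in both tissues. Hpcal4 (chromosome 4, 123183227 to 123194701, plus strand) measured 1942, 1889 and 1759 CPM in dentate gyrus, against 1553 and 1553 CPM in cortex. Every dentate gyrus library was higher, by less than for Hpca. Its log2 fold change was 0.26 (SE 0.09) with an adjusted p by edgeR of 0.0582, so it was not called, and by limma voom it was called (0.27, adjusted p = 0.0123).

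Ncs1 and Hpcal1 were the members with overlapping tissues. Ncs1 (chromosome 2, 31245823 to 31295989, plus strand) encodes neuronal calcium sensor 1, a partner of the lipid kinase gene product of Pi4kb and of dopamine receptors. It was at 127, 120 and 149 CPM in dentate gyrus, against 125 and 128 CPM in cortex. Dentate gyrus replicate 3 was the highest library, and both cortex values lay between dentate gyrus replicates 2 and 3. Its log2 fold change was 0.06 (SE 0.16, adjusted p by edgeR 0.842), and it was -0.05 without dentate gyrus replicate 3. Hpcal1 (chromosome 12, 17690856 to 17791933, plus strand) measured 9.96, 7.51 and 7.52 CPM in dentate gyrus, against 8.90 and 5.74 CPM in cortex. Its log2 fold change was 0.19 (SE 0.48, adjusted p by edgeR 0.837), and it was -0.13 without cortex replicate 2. Purkinje cells also make Hpcal1, whose protein is known as VILIP-3, and their markers were high in cortex replicate 1, the higher cortex library for Hpcal1; their part was not tested. The SE of Hpcal1 leaves room for changes as large as those of Calm3 in either direction.

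**Figure D3:**
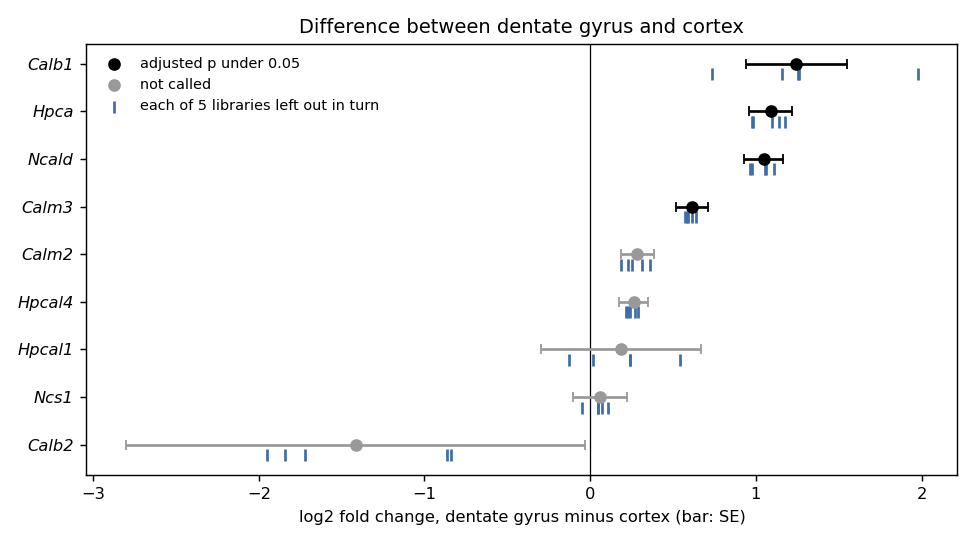
Log2 fold change of each gene, dentate gyrus minus cortex, with its SE as a bar (black, adjusted p under 0.05; grey, not called), and blue ticks for the values with each of the 5 libraries left out in turn. The ticks of Hpca, Ncald and Calm3 stay close to the main value, those of Calb1 run between 0.73 and 1.98, and those of Hpcal1 and Ncs1 lie on both sides of 0.

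Levels of different genes were set side by side as CPM per kilobase of merged exons. In dentate gyrus the order was Calm2 (4276 ± 515 CPM per kilobase; SD, n = 3), Calm3 (534 ± 26.1), Hpca (354 ± 39), Hpcal4 (349 ± 17.6), Ncald (67.2 ± 4.26), Calb1 (29.6 ± 2.28), Ncs1 (28.4 ± 3.23), Hpcal1 (4.91 ± 0.834) and Calb2 (0.413 ± 0.348). Hpca and Hpcal4 overlapped between libraries there, as did Calb1 and Ncs1, and the other neighbours in the order did not overlap. In cortex the order was Calm2 (3511 ± 81.8; SD, n = 2), Calm3 (349 ± 2.37), Hpcal4 (291 ± 0.0412), Hpca (167 ± 18.9), Ncald (32.5 ± 1.71), Ncs1 (27.2 ± 0.494), Calb1 (12.5 ± 6.98), Hpcal1 (4.32 ± 1.32) and Calb2 (1.10 ± 0.540), with no overlap between neighbours. Calm2 ranked 1 in dentate gyrus and 3 in cortex among 12818 genes with a length. Per kilobase of coding sequence, Hpcal4 stood above Calm3 in both tissues and Ncs1 above Calb1 in dentate gyrus, so these places depend on which length is used.

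Among the 5 member sensors, with other genes of the family left out, the make-up of transcripts differed between the tissues mainly in Hpca and Hpcal4. Hpca made up 45.9%, 43.4% and 42.7% of their summed CPM per kilobase in the dentate gyrus libraries, against 30.0% and 33.8% in the cortex libraries. Hpcal4 made up 42.0%, 44.7% and 43.8% in dentate gyrus, against 57.0% and 54.6% in cortex. The Hpca and Hpcal4 shares did not overlap between tissues. Ncald averaged 8.37% ± 0.239 (SD, n = 3) in dentate gyrus and 6.24% ± 0.524 (SD, n = 2) in cortex. Ncs1 averaged 3.56% ± 0.608 in dentate gyrus and 5.22% ± 0.0693 in cortex, and Hpcal1 stayed at or below 1.03% in all libraries. The shares depend on the length used. Per kilobase of coding sequence, Hpca averaged 28.4% in dentate gyrus and 19.7% in cortex, Hpcal4 51.8% in dentate gyrus and 63.5% in cortex, and Ncald 15.9% in dentate gyrus and 11.3% in cortex. Hpcal4 then had the larger share in every library, whereas with the longest transcript Hpca averaged 49.7% and Hpcal4 33.6% in dentate gyrus. With each length, the Hpca share was higher and the Hpcal4 share lower in every dentate gyrus library than in both cortex libraries. Shares depend on each other, so a larger share of one gene lowers the others. They cover the 5 members only and are not shares of the whole family. The relative Vsnl1, not included, was above each of the 5 in CPM. It was at 4276 ± 609 CPM in dentate gyrus (SD, n = 3) and 12996 ± 1856 CPM in cortex (SD, n = 2).

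**Figure D4:**
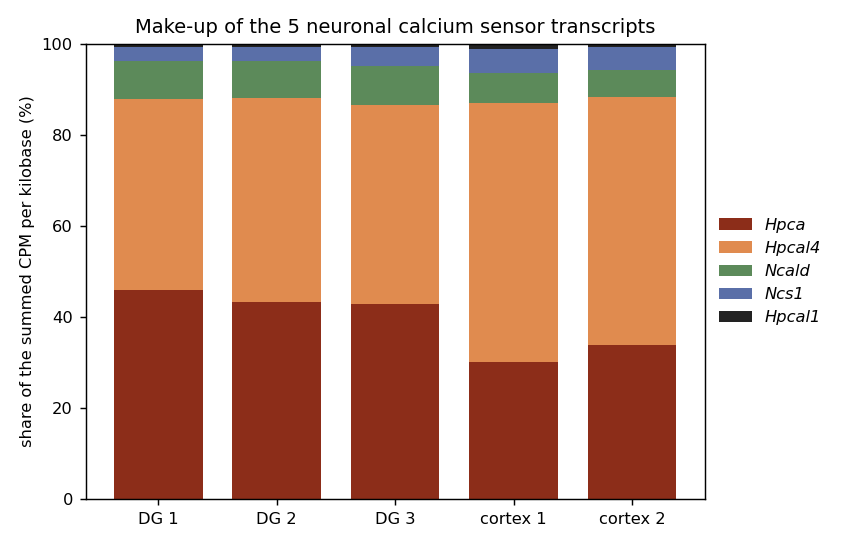
Share of each of 5 sensor genes in their summed CPM per kilobase of merged exons (%), 1 stacked bar per library, dentate gyrus (DG) left of cortex. Hpca takes 42.7% to 45.9% in dentate gyrus and 30.0% to 33.8% in cortex. Hpcal4 takes the largest share in both cortex libraries and in dentate gyrus replicates 2 and 3. Other genes of the family, such as Vsnl1, are not included.

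Start regions were available for 5 members in RefSeq windows of 300 bases on GRCm38.p6, and the windows of Calm3 and Hpca are shown because both genes were called higher. Capitals mark matches to the GC box, GGGCGG on either strand, with overlapping matches each counted. The Calm3 window is chr7:16923983-16924282 on the minus strand. Of the 3 Hpca windows, the one nearest the start of the principal GENCODE transcript is shown, chr4:129121254-129121553 on the minus strand.
Calm3: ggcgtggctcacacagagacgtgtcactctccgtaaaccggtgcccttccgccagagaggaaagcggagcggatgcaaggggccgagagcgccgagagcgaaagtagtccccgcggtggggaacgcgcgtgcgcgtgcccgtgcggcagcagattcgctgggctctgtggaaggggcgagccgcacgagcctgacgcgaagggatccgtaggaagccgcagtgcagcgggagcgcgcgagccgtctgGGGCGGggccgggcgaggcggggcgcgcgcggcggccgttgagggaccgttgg
Hpca: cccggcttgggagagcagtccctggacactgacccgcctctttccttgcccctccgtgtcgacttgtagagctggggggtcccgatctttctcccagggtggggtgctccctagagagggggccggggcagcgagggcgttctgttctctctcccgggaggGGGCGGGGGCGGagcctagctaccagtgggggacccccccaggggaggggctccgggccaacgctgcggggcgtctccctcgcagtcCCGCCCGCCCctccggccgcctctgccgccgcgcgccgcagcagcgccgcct
The Calm3 window holds 1 GC box and this Hpca window holds 4, while the other Hpca windows hold 1 and 0. The windows of Ncs1 and Hpcal1, which overlapped between tissues, hold 3 each, and that of Hpcal4 holds 2. A GC box was thus found in 6 of the 7 member windows and in 35.7% of all 32851 windows. Those 6 windows were 60.3% to 76.0% G or C and the other was 51.3%, against a median of 52.7% over all windows. The part of base composition was not tested. The full cyclic AMP response element, TGACGTCA, which CREB binds downstream of calcium signals, was in 0 of the 7 member windows and in 1.79% of all windows. Its shorter part TGACG, in 20.8% of all windows, occurred once in the Calm3 window. Members without a window were Calm2, Calb1, Calb2 and Ncald.

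Other calcium-binding and calmodulin-dependent genes moved in both directions. Of 62 tested genes in 9 lists, 11 were called higher and 20 lower in dentate gyrus, 31 of 62 in all. Beside this, 21.3% were called among all genes and 51.6% among genes of at least 100 CPM. Many of the 62 genes lay under 100 CPM, so the second share is not matched to them in level. The median log2 fold change of the 62 genes was -0.48. Lists were drawn by protein family with earlier results of these data known, and means are given with their SD over 3 dentate gyrus and 2 cortex libraries.

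Among 6 tested relatives in the neuronal calcium sensor family, 2 were called higher and 2 lower, with a median log2 fold change of -0.27. Vsnl1, the visinin-like 1 gene, was lower in dentate gyrus at 4276 ± 609 CPM, against 12996 ± 1856 CPM in cortex (log2 fold change -1.60, SE 0.12, adjusted p by edgeR 1.8e-05). This is the opposite direction to Hpca and Ncald. The potassium channel interacting proteins were divided. Kcnip2 was higher at 155 ± 15.1 CPM in dentate gyrus, against 51.8 ± 7.81 CPM in cortex, and Kcnip3 was lower at 258 ± 15.8 CPM in dentate gyrus, against 514 ± 37.5 CPM in cortex. Kcnip4 was called higher with a log2 fold change of 0.45, but its adjusted p was above 0.05 in 11 of 16 alternatives, at 0.0522 with RLE scaling.

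The other cytosolic EF-hand genes had 3 called higher and 5 lower of 14 tested. Pvalb, the parvalbumin gene of fast-spiking interneurons and Purkinje cells, was at 0.0276, 0.267 and 0.431 CPM in dentate gyrus, against 27.5 and 11.7 CPM in cortex. The higher cortex value was again that of the library with cerebellar markers, and Pvalb was called lower in all 16 alternatives. Necab1 was at 75.5 ± 32.0 CPM in dentate gyrus, against 357 ± 74.6 CPM in cortex. Efhd2 was at 71.2 ± 2.12 and Sri, the sorcin gene, at 165 ± 14 CPM in dentate gyrus, against 196 ± 10.1 and 72.0 ± 5.83 CPM in cortex. Of 3 tested CaBP and calneuron genes, 0 were called higher and 1 lower, Cabp1, at 1.71 ± 0.329 CPM in dentate gyrus, against 10.9 ± 3.82 CPM in cortex. Its adjusted p was 0.131 without cortex replicate 1.

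S100 genes had 0 called higher and 2 lower of 4 tested. S100b was at 3.23, 2.75 and 3.02 CPM in dentate gyrus, against 62.0 and 79.4 CPM in cortex, and S100a10, the p11 gene, at 0, 0.666 and 0.157 CPM in dentate gyrus, against 15.7 and 13.2 CPM in cortex. S100b is best known from astrocytes. Of 5 astrocyte markers listed, 1 was called lower (Aldoc) and 0 higher, with summed levels of 50.1 to 85.3 CPM in dentate gyrus and 114 to 148 CPM in cortex, and Gfap was at no more than 3.45 CPM in any library. The lower dentate gyrus sum came from Aldoc: the other 4 markers, none of them called, summed to 32.0, 32.4 and 64.1 CPM in dentate gyrus, against 21.4 and 24.9 CPM in cortex. The part of astrocyte RNA in the S100b value was not tested. Secretory pathway calcium binders had 0 higher and 1 lower of 9 tested, a called share of 11.1%. The one called was Rcn2, at 25.5 ± 3.6 CPM in dentate gyrus, against 57.0 ± 4.2 CPM in cortex, with an adjusted p of 0.0607 without cortex replicate 1.

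Calmodulin-dependent kinases, the enzymes that read the calmodulin signal, had 5 called higher and 5 lower of 13 tested, with a median log2 fold change of 0.03. Camk4, a nuclear kinase that acts on CREB, was lower at 113 ± 7.52 CPM in dentate gyrus, against 600 ± 2.65 CPM in cortex. Camkk1, an upstream kinase of the cascade, was higher at 151 ± 19.8 CPM in dentate gyrus, against 29.4 ± 1.53 CPM in cortex. Camk2b was higher at 1152 ± 191 CPM in dentate gyrus, against 408 ± 67.2 CPM in cortex. Dapk1 was higher at 241 ± 23.4 CPM in dentate gyrus, against 91.3 ± 7.56 CPM in cortex. The IQ-motif proteins that bind calmodulin had 0 higher and 3 lower of 5 tested. Gap43 was at 2.07, 54.1 and 11.6 CPM in dentate gyrus, against 294 and 327 CPM in cortex, and robust dispersion estimates gave it an adjusted p of 0.194. Pcp4l1 was at 5.08 ± 2.03 CPM in dentate gyrus, against 41.4 ± 2.72 CPM in cortex. Myo5a was called lower with a log2 fold change of -0.49, and its adjusted p was 0.0862 and 0.0530 without cortex replicates 1 and 2.

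Reported partners of the sensors had 0 called higher and 1 lower of 7 tested, a called share of 14.3%. The kinase gene Pi4kb was at 21.4, 12.7 and 16.1 CPM in dentate gyrus, against 13.5 and 6.15 CPM in cortex, and was not called. The gene called was the dopamine receptor gene Drd2, at 1.21 ± 0.641 CPM in dentate gyrus, against 10.5 ± 8.93 CPM in cortex, with an adjusted p of 0.404 without cortex replicate 2.

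**Figure D5:**
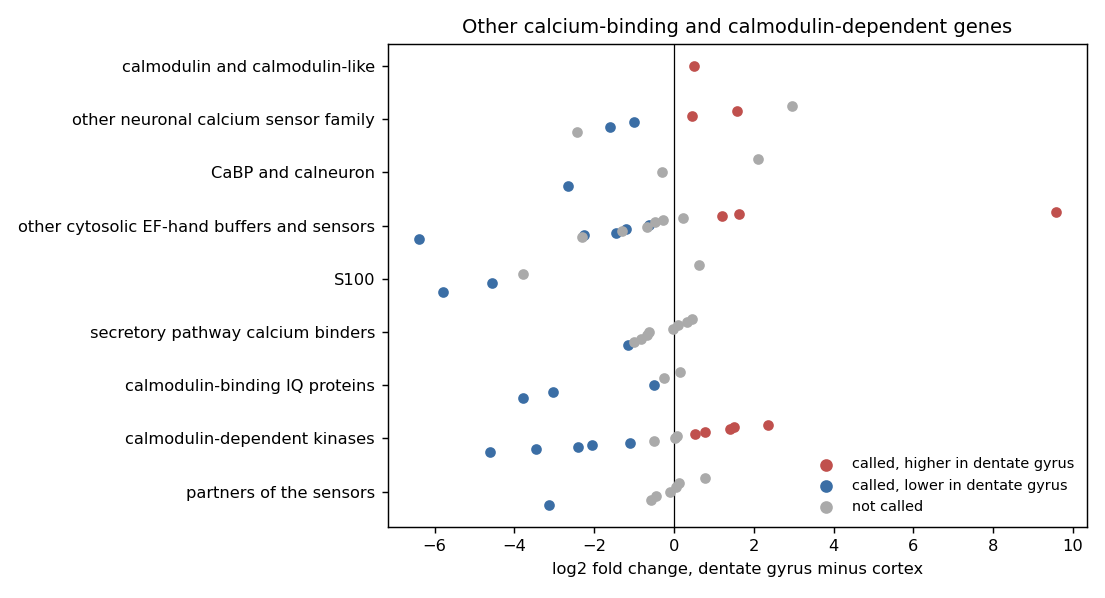
Log2 fold change, dentate gyrus minus cortex, of every tested gene in 9 lists of calcium-binding and calmodulin-dependent genes, 1 point per gene, coloured by call. The kinases fall on both sides of 0, the called S100 and IQ-motif genes lie below it, and the point farthest right is Scgn, a fitted value for a gene with 0 counts in cortex.

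For each called member, the 2 genes of closest profile over the 5 libraries were found among 10318 tested genes whose counts averaged 100 or more, by Euclidean distance between mean-centred log2 CPM. Nearest to Hpca were Fam117b (distance 0.103) and Vps13b (0.103). Nearest to Ncald were Mkl2 (0.0752) and Klf9 (0.0853), nearest to Calm3 were Rpl7 (0.0506) and Bptf (0.0602), and nearest to Calb1 were Gabpb2 (0.241) and 2700081O15Rik (0.262). Each profile holds 5 values, and with profiles scaled to unit length only 1 of these 8 genes stayed nearest.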

How the data were processed

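Each library came as a deposited table of whole-number read counts by gene symbol, which the authors made with STAR 2.0.0e and HTSeq on mm10, per the submitters' processing notes. The sources used here do not give the annotation, strand setting or HTSeq version. Non-gene rows entered neither the library totals nor any test. Reads with no feature made up 13.3% to 14.8% of all counted reads in dentate gyrus, against 10.6% and 11.0% in cortex. Reads that were not unique made up 25.0% to 25.4% in dentate gyrus, against 30.0% and 31.8% in cortex. Both shares thus differed by tissue, and their part in the differences between tissues was not tested. Ambiguous reads made up 1.81% to 1.87%. Counts on genes summed to between 22600963 and 36837908, and a floor of 3 counts was 0.0828 to 0.133 CPM in single libraries (counting error only).

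Dentate gyrus was compared with cortex in edgeR 4.0.16 (R 4.3.3) with TMM scaling, filterByExpr and a quasi-likelihood test on tissue. P-values were adjusted by Benjamini-Hochberg over 14136 genes, and the threshold was 0.05. All adjusted p-values are from this test unless another is named, and SE was taken from the F statistic. CPM values use TMM-scaled library sizes. Lengths, positions and coding sequences are from GENCODE M21 (GRCm38, the build named mm10 elsewhere), and start windows from RefSeq on GRCm38.p6. Alternatives were run with DESeq2 1.42.0, limma 3.58.1 and other settings given in the closing section. Figures were drawn with matplotlib 3.10.9.

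The members and all lists were chosen with earlier results of these data known. All members were named. Of each related list, up to 4 called genes with the smallest adjusted p and a mean count of at least 100 were named, besides markers of cell types known to make a member. Any other gene was picked with its values already seen. One listed partner, Ric8a, was not analysed here.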

Additional observations from a re-analysis of the deposited data

How the results depend on the processing

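The calls of Calm3, Hpca and Ncald held in 15 of 16 alternatives each, and were lost only when the change had to exceed 2-fold. That test called 0 of the 9 genes, 15 of the related genes and 842 of all genes. The Calb1 call held in 14 of 16. The number of members called was 3 to 5 when single libraries were left out, 5 with a replicate block, 6 by limma voom and 4 by DESeq2. Over all genes the count was 1886 to 2775 with single libraries left out, lowest without either cortex library (1906 without replicate 1 and 1886 without replicate 2), and 1578 with dentate gyrus replicate 2 and cortex replicate 1 both left out. These fits had fewer samples, and those with 1 cortex library assume that it varies like the dentate gyrus libraries. The related genes called numbered 25 to 32 with single libraries left out.

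Directions turned round only for members near 0. The log2 fold change of Ncs1 was -0.036 with the replicate block, and ran from -0.049 (without dentate gyrus replicate 3) to 0.11 with single libraries left out. That of Hpcal1 ran from -0.13 (without cortex replicate 2) to 0.54. The cause was not tested. The labels give replicate numbers 1 and 2 to both tissues. The labels do not say that these numbers mark a shared animal or day, so they were not taken to pair libraries. Deviations of libraries sharing a number correlated at -0.00400 and -0.0163. With 2 cortex libraries the cortex deviations mirror each other, so these values cannot decide on pairing. The block called 2237 of all genes. Under the block Calm2 was called (log2 fold change 0.37, adjusted p = 0.0219 by edgeR).

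With coding sequence as the length, 4 of 9 members kept their place in the dentate gyrus order, and all 9 did with the longest transcript. With profiles scaled to unit length, 1 of the 8 nearest genes stayed. Shares and ratios with other lengths were computed after seeing the data. Calb2 had 1 to 63 counts per library and Hpcal1 140 to 361, and which part of their SE comes from depth was not tested.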

Other observations

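Some relatives of the members had nearly all their reads in 1 library and did not pass the filter. They were picked with their values already seen, as was Scgn. Rcvrn, the photoreceptor sensor recoverin, had 65 counts in dentate gyrus replicate 2 (2.89 CPM), with 3 and 0 counts in the other dentate gyrus libraries and 0 in both cortex libraries. Dentate gyrus replicate 2 also held Dcn at 114 CPM and Dlk1 at 83.4 CPM, while Dcn was at 1.71 and 10.5 CPM and Dlk1 at 0.110 and 13 CPM in dentate gyrus replicates 1 and 3. Ocm, the parvalbumin relative oncomodulin, had 0 counts in dentate gyrus, 113 in cortex replicate 2 (4.64 CPM) and 4 in cortex replicate 1. S100a1 had 0 to 2 counts in the dentate gyrus libraries, 102 in cortex replicate 2 (4.18 CPM) and 3 in cortex replicate 1. S100a13 had 0 counts in dentate gyrus, 79 in cortex replicate 1 (2.25 CPM) and 1 in cortex replicate 2.

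Scgn, the gene of the buffer and sensor secretagogin, was found in all dentate gyrus libraries. It was at 3.86, 3.51 and 2.51 CPM in dentate gyrus and had 0 counts in cortex, which makes it at least 65.2-fold higher against a floor of 3 counts over both cortex libraries. With Scgn at that bound, the median log2 fold change of the other cytosolic EF-hand genes was -0.65, as it was with the fitted value.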
